A study of Mus musculus with 25 samples.

Results

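The cell division machinery of the embryonic palate was followed through 46 genes, and all 46 were found by gene symbol among the 37406 genes of the expression table. They take in the proliferation markers Mki67 and Top2a, the D, E, A and B type cyclins with their kinases, 2 inhibitors of those kinases, the factors that license and run DNA replication, the enzymes of nucleotide supply, the mitotic kinases with the spindle checkpoint, centromere and spindle proteins, and the transcription factors E2f1, Foxm1 and Mybl2. The RNA came from wild type CD1 mouse embryos at the E14.5 stage, with no transgene, deletion or treatment in any group. Laser capture microdissection, in which a laser frees chosen pieces of a tissue section, was used to collect 4 compartments (medial, lateral, oral and nasal) from the front and from the back of the palate, called anterior and posterior. Every compartment had 3 libraries apart from the anterior nasal compartment, which had 4, giving 25 libraries in all. The labels number the replicates without saying whether each came from a separate embryo, so the p-values measure the spread between these samples, which may be partly technical.

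A cell enters division in G1 when mitogens raise the D type cyclins, which with Cdk4 and Cdk6 phosphorylate the retinoblastoma protein and release E2F factors. E2F then drives the genes for cyclin E, replication licensing and nucleotide synthesis. Later, in G2 and mitosis, a complex that includes B-Myb (Mybl2) and FoxM1 drives the cyclin B, kinase and kinetochore genes. The inhibitors p21 (Cdkn1a) and p27 (Cdkn1b) restrain the cyclin dependent kinases. Growth of the palatal shelves rests on proliferation of neural crest derived mesenchyme, and the bone of the hard palate later forms within that mesenchyme.

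Promoter sequences of 3 members are shown because their levels bear on the comparisons that follow. Cdkn1a is the member that passed the test between compartments, Cdk1 stands for the G2 and mitosis genes, and Mcm6, a subunit of the replicative helicase, stands for the replication genes. Each runs 5′ to 3′ from 250 bases before to 50 bases after the annotated start (RefSeq, GRCm38.p6), and 2 starts are annotated for Cdkn1a. Capitals mark, in Cdkn1a, an element of the kind bound by p53 (2 adjacent elements of 10 bases each, at most 1 base away from the consensus) and, in the others, CCAAT, the letters TTTGAA (the cell cycle genes homology region) and the E2F forms TTCCCGC and TTGGCGC, each sought on both strands. CCAAT read on the reverse strand and TTGGCGC share letters and can overlap.
Cdkn1a, upstream start, chr17:29090729-29091028, plus strand: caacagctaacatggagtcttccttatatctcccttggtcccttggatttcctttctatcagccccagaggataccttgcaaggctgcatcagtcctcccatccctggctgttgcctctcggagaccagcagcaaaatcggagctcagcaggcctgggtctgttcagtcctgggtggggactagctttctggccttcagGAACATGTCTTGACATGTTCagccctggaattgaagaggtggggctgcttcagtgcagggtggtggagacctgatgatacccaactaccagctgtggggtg
Cdkn1a, downstream start, chr17:29093519-29093818, plus strand: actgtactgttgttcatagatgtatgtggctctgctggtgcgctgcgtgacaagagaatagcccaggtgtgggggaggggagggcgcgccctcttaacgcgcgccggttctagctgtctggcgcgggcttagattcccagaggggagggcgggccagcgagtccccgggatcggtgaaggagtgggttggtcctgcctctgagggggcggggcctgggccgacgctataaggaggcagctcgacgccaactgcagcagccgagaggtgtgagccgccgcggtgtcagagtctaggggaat
Cdk1, chr10:69352863-69353162, minus strand: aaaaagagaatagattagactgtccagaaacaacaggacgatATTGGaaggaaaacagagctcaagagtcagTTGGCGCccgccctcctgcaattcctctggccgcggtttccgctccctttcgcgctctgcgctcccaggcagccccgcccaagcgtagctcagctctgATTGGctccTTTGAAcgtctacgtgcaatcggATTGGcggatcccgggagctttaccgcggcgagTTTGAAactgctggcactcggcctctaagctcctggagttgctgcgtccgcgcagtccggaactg
Mcm6, chr1:128359656-128359955, minus strand: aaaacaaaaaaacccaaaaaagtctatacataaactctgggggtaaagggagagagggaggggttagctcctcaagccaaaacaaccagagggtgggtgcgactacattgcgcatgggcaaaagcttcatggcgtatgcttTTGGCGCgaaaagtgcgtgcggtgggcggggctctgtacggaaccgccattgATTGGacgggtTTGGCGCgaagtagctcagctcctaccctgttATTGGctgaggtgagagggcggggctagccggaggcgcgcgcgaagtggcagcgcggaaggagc

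Promoters were found for 38 of the 46 members, 41 windows in all. CCAAT was in 29 of the 41 windows (70.7%), against 37.4% of the 32851 promoters of the whole annotation. TTTGAA was in 15 (36.6%, against 17.9%), TTCCCGC in 7 (17.1%, against 4.6%) and TTGGCGC in 8 (19.5%, against 2.45%). Among the 17 promoters of proliferation markers, G2/M, mitosis and spindle genes, 16 held CCAAT and 13 held TTTGAA, while none held TTCCCGC and 3 held TTGGCGC. Among the 15 promoters of G1/S, replication and nucleotide genes, 11 held CCAAT and 2 held TTTGAA, with TTCCCGC in 7 and TTGGCGC in 5. Only the upstream Cdkn1a window of the 41 held the p53 element, which was found in 29 of the 32851 promoters (0.0883%), and this element was added to the search after the sequence had been seen. The downstream Cdkn1a window held none of these letters. A match of letters is a description and does not show that a factor bound there in these cells.

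Levels are given as deposited in RPKM, read counts scaled to transcript length and to library size. The depth of each library, estimated from the steps between low values, lay between 1.64 and 6.56 M reads, well below the average read number that the paper states. By this estimate 1 read on a transcript of 2000 bases was worth 0.0763 to 0.305 RPKM. Markers of palate mesenchyme were high in every library (summed level 681 to 1390 RPKM) and those of epithelium low (20.2 to 140 RPKM), and the sum of 7 skeletal muscle markers ran from 3.18 RPKM to 138 RPKM, highest in posterior lateral 1. The libraries posterior medial 2 and anterior oral 1 stood apart from the rest, with median correlations with the others of 0.658 and 0.719 across genes, against 0.782 or more for every other library. Differences are of log2(RPKM + 0.1), tested with limma and with Benjamini-Hochberg adjustment across every gene tested, and a gene is called at an adjusted p under 0.05. Some members share their locus with another gene (Ccnd1 with Oraov1, Ccnd2 with 9330179D12Rik, Ccnd3 with Bysl, Ccna2 with Exosc9, Ccne2 with Ints8, Cdc20 with Elovl1, Plk1 with Dctn5, Mcm7 with 3 microRNAs), and no source used here says that reads were counted by strand, so values of these members are less certain.

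The machinery of division was strongly and rather evenly expressed across the palate. The median member had a mean level of 32.5 RPKM, against 14.3 RPKM for the 11913 genes that reached 5 RPKM in 3 or more libraries, and 38 of the 46 members lay above that value. Ube2c, the ubiquitin conjugating enzyme of the anaphase promoting complex, averaged 136 RPKM and ranged from 112 to 175 RPKM over the 25 libraries. Close to it were Cdk4 (133 RPKM), the replication clamp Pcna (110 RPKM), Mki67 (96.8 RPKM), Top2a (84.4 RPKM) and cyclin A2, Ccna2 (82.0 RPKM). The lowest means belonged to the mitotic kinase Plk1 (3.60 RPKM), cyclin E2, Ccne2 (5.57 RPKM), the licensing factor Cdc6 (6.37 RPKM) and Cdkn1a (7.82 RPKM). No member was under 5 RPKM in all libraries, and Plk1 in posterior medial 2 was the single value listed at 0.

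Over the 25 libraries the median SD of a member was 0.37 on the log2 scale, beside 0.48 for all genes over the minimum and 0.46 for the 11144 of them with means within the members' range. That range kept most of the 11913 genes, so the higher level of the members was not matched. The mean of a member's highest compartment was at the median 1.49 times that of its lowest, beside 1.68 times for all genes. Kif11, the kinesin that pushes the spindle poles apart, was the most even by this ratio. Its compartment means ran from 34.6 ± 6.75 RPKM (SD, n = 3) in posterior lateral to 35.8 ± 14.7 RPKM (SD, n = 4) in anterior nasal, a ratio of 1.03, while its single libraries ran from 17.5 to 57.6 RPKM. Top2a, the topoisomerase that untangles sister chromatids, followed at 1.21 and cyclin B1, Ccnb1, at 1.24. At the other end stood Cdkn1a at 4.78, Plk1 at 4.71, E2f1 at 4.26, Ccnd1 at 2.92 and Ccnd2 at 2.56. For Plk1 and E2f1 the ratio rested on individual libraries, described further on.

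**Figure D1:**
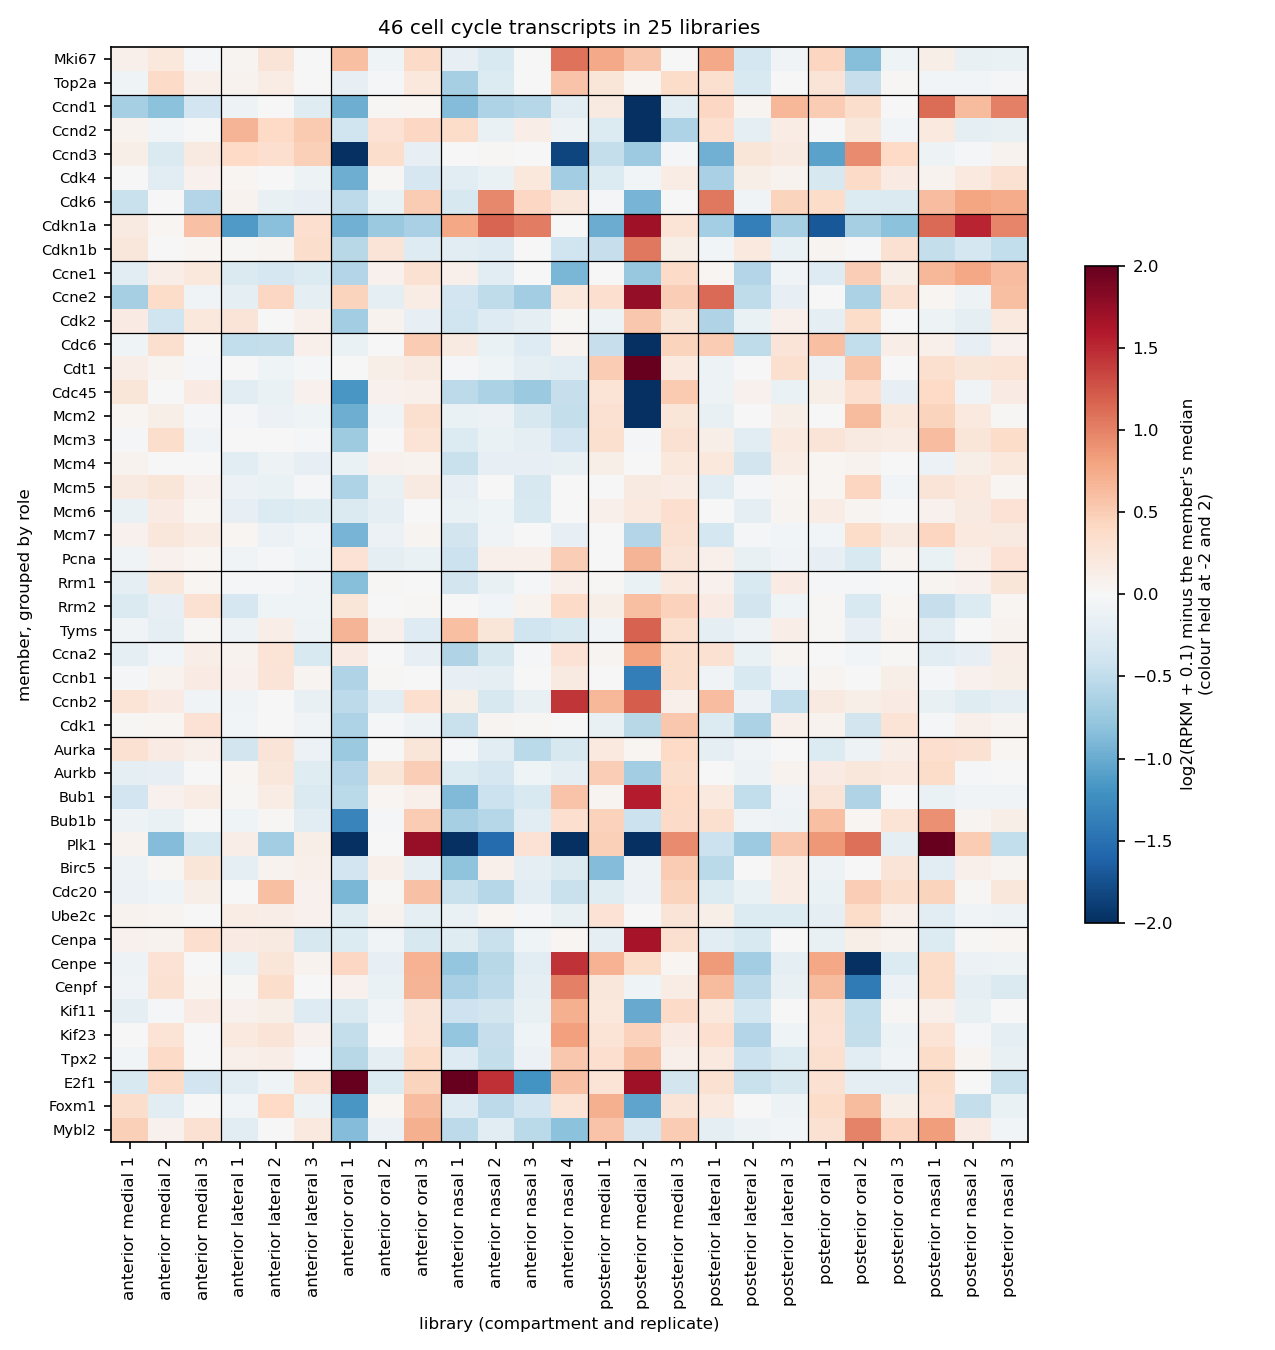
Each row is a member, grouped by role, and each column a library; colour gives log2(RPKM + 0.1) minus the member's median over the 25 libraries, held at -2 and 2. Most of the grid is pale, and 24 of the 52 values more than 1 from the median lie in posterior medial 2 and anterior oral 1.

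Of the 1150 member values, 52 lay more than 1 from the member's median on the log2 scale. Posterior medial 2 held 18 of these, anterior oral 1 and anterior nasal 4 held 6 each, and 10 libraries held none. Taking the members together, the median deviation of a library lay between -0.55 in anterior oral 1 and 0.29 in posterior medial 3. By compartment its mean was lowest in anterior nasal, at -0.16 ± 0.12 (SD, n = 4), and highest in posterior medial, at 0.13 ± 0.16 (SD, n = 3). This measure is a description and was not tested.

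Comparing the 12 posterior with the 13 anterior libraries asks whether division genes differ along the length of the palate. None of the 43 members over the expression minimum (at least 10 RPKM in at least 6 libraries) was called, while 3.32% of the 8608 genes tested were called. Ccne2, Cdc6 and Plk1 were under that minimum. At an unadjusted P under 0.05 limma picked 6 members, all higher in the posterior, where 15.3% of all genes passed. No member's posterior and anterior values were free of overlap, as was so for 0.267% of genes. The median of the 46 members was 0.13 higher in the posterior, beside 0.03 for all genes, and 35 of the 46 were above 0, beside 55.7% of all genes. Over 35 alternative settings the members' median ran from 0.03 to 0.15, and it was 0.06 without the 2 libraries that stood apart.

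Cyclin D1, Ccnd1 (gene ID 12443, chr7:152115836-152125830, mm9), the sensor of mitogens in G1, showed the widest posterior excess among the members tested. In the posterior palate it was at 33.6, 7.08 and 25.4 RPKM in medial 1 to 3, at 39.4, 30.8 and 46.9 RPKM in lateral, at 42.0, 37.7 and 29.6 RPKM in oral and at 64.3, 45.9 and 59.4 RPKM in nasal. In the anterior palate it was at 18.7, 16.7 and 22.7 RPKM in medial, at 27.6, 29.7 and 24.96 RPKM in lateral, at 14.9, 30.2 and 30.3 RPKM in oral and at 16.2, 19.2, 19.9 and 25.1 RPKM in nasal. The posterior nasal libraries were thus high, each above every anterior library, and posterior medial 2 was the lowest of the 25. The means were 38.5 ± 15.3 RPKM (SD, n = 12) and 22.8 ± 5.58 RPKM (SD, n = 13), a log2 difference of 0.64 (SE 0.24) with an adjusted p of 0.176 in limma. Without posterior medial 2 the difference was 0.84, with an adjusted p of 8.83e-04 in limma, and without both libraries that stood apart it was 0.80, with an adjusted p of 0.00139 in limma. Ccnd1 was higher in the posterior within each of the 3 sequencing runs that held both posterior and anterior libraries, by 0.91, 0.36 and 0.82 on the log2 scale. Only the run with 0.91 held the same compartments on both sides. The run with 0.36 set posterior medial, oral and nasal libraries against anterior medial ones. Its posterior medial libraries were at 7.08 and 25.4 RPKM, beside 18.7, 16.7 and 22.7 RPKM in anterior medial. The run with 0.82 set posterior lateral and nasal libraries against anterior lateral 3. With the run as a term in the fit Ccnd1 was 0.61 higher, at an adjusted p of 0.498 in limma. Over 37 alternative settings the adjusted p ran from 8.83e-04 to 0.893 in limma and the difference from 0.48 to 0.84.

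Replication genes made up 3 of the 6 members with a small unadjusted P. Mcm6 averaged 41.0 ± 3.94 RPKM (SD) over the 12 posterior libraries and 34.9 ± 3.54 RPKM over the 13 anterior ones, a log2 difference of 0.23 (SE 0.07, adjusted p = 0.0886, limma). Another helicase subunit, Mcm3, was 0.30 higher (adjusted p = 0.127, limma). The licensing factor Cdt1 was 0.37 higher (adjusted p = 0.266, limma), with 1 library, posterior medial 2, at 52.7 RPKM and the other 24 between 10.7 and 18.1 RPKM. The checkpoint kinase Bub1b was 0.41 higher and Mybl2 0.37 higher, with adjusted p of 0.215 and 0.314 in limma. Over 37 alternatives these differences ran from 0.21 to 0.47 and from 0.15 to 0.44. Bub1b was also 0.69 higher in the libraries of the 3 earliest-numbered runs than in the rest. Those runs held every posterior compartment but no anterior medial or lateral library. Of the 10 replication genes 9 were above 0, and their median was 0.15. The exception was Cdc6 at -0.31, with posterior medial 2 at 0.172 RPKM. The median level of Cdc6 was 6.87 RPKM over the posterior libraries and 6.40 RPKM over the anterior ones. All 8 mitotic kinases, checkpoint and anaphase genes were above 0, at a median of 0.19. These 2 counts stand beside 55.7% of all genes above 0.

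Other parts of the cycle did not differ beyond their spread along this axis. Mki67 was at 94.8 ± 30.6 RPKM (SD) over the 12 posterior libraries and 98.6 ± 29.5 RPKM over the 13 anterior ones, a log2 difference of -0.08 with a 95% interval of -0.42 to 0.26. Top2a differed by 0.01 with an interval of -0.23 to 0.24. For Cdk1, the kinase that brings on mitosis, the interval was -0.25 to 0.24, and for Ube2c it was -0.16 to 0.18. Cyclin D2, Ccnd2, had the opposite sign from cyclin D1, with a log2 difference of -0.39 and an interval of -0.78 to 0.01.

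**Figure D2:**
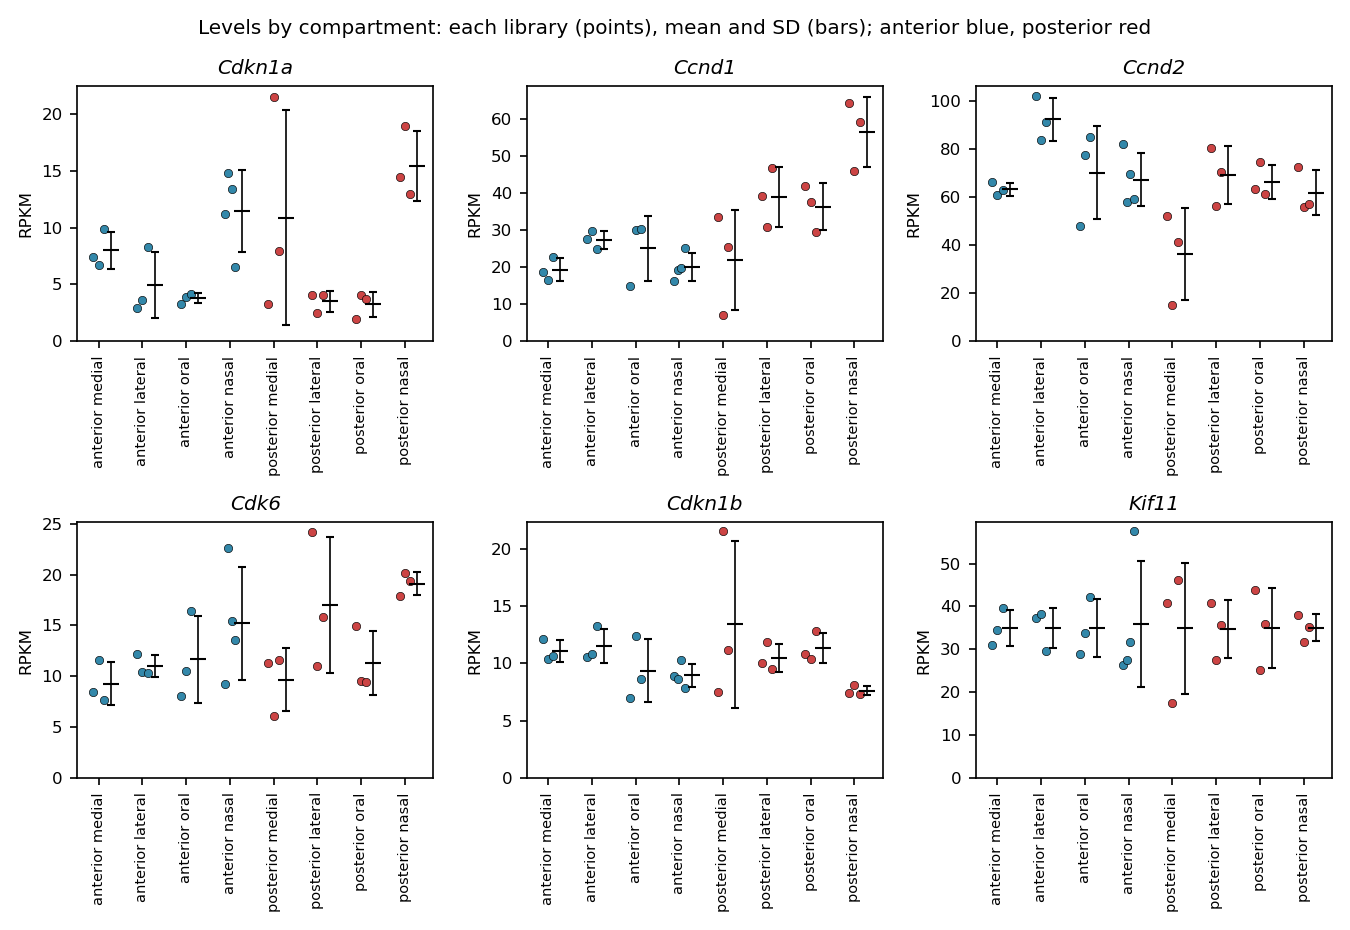
RPKM of 6 members by compartment; points are libraries (anterior blue, posterior red) and bars give the mean and SD. Cdkn1a is high in the nasal libraries apart from anterior nasal 4 (6.54 RPKM), and in 1 posterior medial library at 21.5 RPKM. Ccnd1 is highest in posterior nasal, Ccnd2 in anterior lateral, and Kif11 has means between 34.6 and 35.8 RPKM throughout.

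Cdkn1a separated the nasal from the oral side. This gene (gene ID 12575, chr17:29227931-29237667, mm9) encodes p21, an inhibitor that p53 and differentiation signals induce. In the posterior palate its oral libraries were at 1.95, 4.07 and 3.67 RPKM and its nasal libraries at 14.4, 18.9 and 12.96 RPKM, so that the lowest nasal value was over the highest oral one. The means were 3.23 ± 1.13 RPKM and 15.4 ± 3.11 RPKM (SD, n = 3 each), a log2 difference of -2.27 (SE 0.31, 95% interval -2.98 to -1.56, adjusted p = 0.0163, limma). In these bulk samples fewer cells with the transcript and less of it per cell cannot be told apart. It was the only member called of 45 tested between posterior oral and nasal, where 1.25% of 10586 genes were called, and it passed the minimum of 5 RPKM through the 3 nasal libraries, so that a gene so kept had to differ. With no such minimum its adjusted p in limma was 0.108, with the run as a term 0.0571 and without posterior oral 3 it was 0.0526. In a fit of all 25 libraries with the run it was called (-2.50, adjusted p = 0.0345, limma). Over the 14 alternatives that tested it the adjusted p ran from 0.0102 to 0.108 in limma and the difference from -2.50 to -1.95. Leaving out a nasal library put it under the minimum, and it was then not tested.

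In the anterior palate, too, Cdkn1a passed the minimum only through the nasal libraries. The anterior oral libraries were at 3.30, 3.88 and 4.14 RPKM and the nasal ones at 11.2, 14.8, 13.4 and 6.54 RPKM, and a gene kept in this way had to differ. Means of 3.78 ± 0.43 RPKM (SD, n = 3) and 11.5 ± 3.61 RPKM (SD, n = 4) gave a log2 difference of -1.52 (SE 0.32), which did not pass the test (adjusted p = 0.473, limma). No gene at all was called in this comparison (0% of 10684). Without anterior oral 1 the difference was -1.43. Within the sequencing runs that held both sides, oral minus nasal was -1.93, -1.76 and -0.65 in the anterior and -2.83 and -2.26 in the posterior on the log2 scale. No oral value overlapped a nasal one in the anterior or in the posterior. The sign within each run was therefore fixed and adds no support. The posterior difference was not shown to be the larger, since the interaction was -0.75 with a 95% interval of -1.76 to 0.26.

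Across the 8 compartments the mean level of Cdkn1a fell from posterior nasal (15.4 RPKM) through anterior nasal (11.5 RPKM), posterior medial (10.9 RPKM) and anterior medial (8.03 RPKM) to anterior lateral (4.94 RPKM), anterior oral (3.78 RPKM), posterior lateral (3.52 RPKM) and posterior oral (3.23 RPKM). Neighbours in this order overlapped in every case. The medial values were 7.45, 6.74 and 9.88 RPKM in the anterior and 3.23, 21.5 and 7.95 RPKM in the posterior, where the highest of the 25 libraries was posterior medial 2. The lateral values were 2.91, 3.61 and 8.30 RPKM and 4.03, 2.46 and 4.07 RPKM. Over all 8 compartments Cdkn1a was the only member of 46 called (limma F-test, adjusted p = 0.0249), beside 4.42% of 11913 genes. Unadjusted P was under 0.05 for 3 members, Cdkn1a, Ccnd1 and Ccnd2, beside 12% of genes. Leaving out a posterior nasal library raised its adjusted p to 0.0561 to 0.0786 in limma, and over 35 alternatives it ran from 0.00257 to 0.0786. Without the 2 libraries that stood apart, Ccnd1, Cdc45 and Mybl2 were called too, at adjusted p of 5.68e-04, 0.0107 and 0.0470 in limma. That alternative was chosen after seeing the data. The share of all genes called in it is not given here, so the added calls cannot be read as particular to the members.

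Markers of other cell types also differed between the oral and nasal sides. All 6 osteoblast lineage markers listed were in the table, and their summed level was 378 to 547 RPKM in posterior nasal and 83.5 to 107 RPKM in posterior oral, and 90.6 to 120 RPKM in anterior nasal and 46.9 to 75.04 RPKM in anterior oral. In the lateral libraries this sum was 58.6 to 185 RPKM in the anterior, where Cdkn1a was at 2.91 to 8.30 RPKM. In the posterior lateral libraries it was 49.6 to 155 RPKM, where Cdkn1a was at 2.46 to 4.07 RPKM. The late marker Bglap was listed at 0 in 14 of the 25 libraries, and the defining markers Runx2 and Alpl in 0. The sum of 5 endothelial markers, none at 0 in any library, ran the other way, with 52.3 to 79.3 RPKM in posterior nasal and 118 to 179 RPKM in posterior oral, and 64.5 to 110 RPKM in anterior nasal and 116 to 176 RPKM in anterior oral. Their part in the Cdkn1a result was not tested.

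Members other than Cdkn1a did not pass the adjusted test between posterior oral and nasal. At an unadjusted P under 0.05 there were 5 members in limma, beside 8% of all genes, and 7 had values free of overlap, beside 11.8%. Cdk6, the G1 kinase, was at 14.9, 9.54 and 9.45 RPKM in oral and 17.9, 20.1 and 19.4 RPKM in nasal, a log2 difference of -0.78 (adjusted p = 0.278, limma). Cyclin E1, Ccne1, was at 14.2, 24.1 and 18.5 RPKM in oral and 27.2, 29.2 and 26.1 RPKM in nasal (-0.57, adjusted p = 0.597, limma). Ccnd1 was also lower on the oral side (-0.63, adjusted p = 0.46, limma). The other inhibitor, Cdkn1b, was placed the opposite way from Cdkn1a, at 10.8, 10.4 and 12.8 RPKM in oral and 7.44, 8.07 and 7.31 RPKM in nasal (0.57, adjusted p = 0.393, limma). Ccnd1, Cdk6, Ccne1 and Cdkn1a thus had lower values on the oral side and Cdkn1b higher ones, each without overlap and all but Cdkn1a short of the threshold. The G1 genes did not share this as a group. The median of the 5 G1 cyclins and kinases was -0.12, and 2 of them were above 0, the highest being Ccnd3 at 0.11. Of the 3 G1/S genes, Cdk2 was 0.10 higher in oral.

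As groups, the replication and mitosis genes showed little of this. Ccnb2 of the G2/M genes, 0.35 higher in posterior oral, and Rrm1 of the nucleotide genes, 0.15 lower, were also without overlap. Between posterior oral and nasal the median of the 10 replication genes was -0.08, of the 8 mitotic kinase, checkpoint and anaphase genes -0.01, and of the 4 G2/M genes 0.03. Mki67 differed by -0.11 with a 95% interval of -0.86 to 0.63, and Top2a by -0.01 with an interval of -0.55 to 0.54. The median absolute difference over the 46 members was 0.11, beside 0.18 for all genes. In the anterior palate 1 member, Cdkn1a, had an unadjusted P under 0.05 (2.98% of genes did), and 3 members, Cdkn1a, Cdt1 and Mcm4, did not overlap (3.67% of genes). Mcm4 and Cdt1 were 0.24 and 0.23 higher in oral. The median of the 46 members was 0.05, and 0.23 without anterior oral 1.

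Whether the oral and nasal sides differed unlike in the anterior and the posterior was tested as an interaction. No member of 46 was called, with 0.035% of 11442 genes called, and 1 member had an unadjusted P under 0.05 in limma, beside 3.38% of genes. This was Ccnd1, 0.27 higher in oral than nasal in the anterior and 0.63 lower in the posterior, an interaction of -0.90 (SE 0.41, unadjusted P = 0.0471, adjusted p = 1.00, limma). In the anterior the sides overlapped, with anterior oral 1 at 14.9 RPKM under all 4 nasal libraries. Without that library the interaction was -1.24, at an adjusted p of 0.331 in limma.

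**Figure D3:**
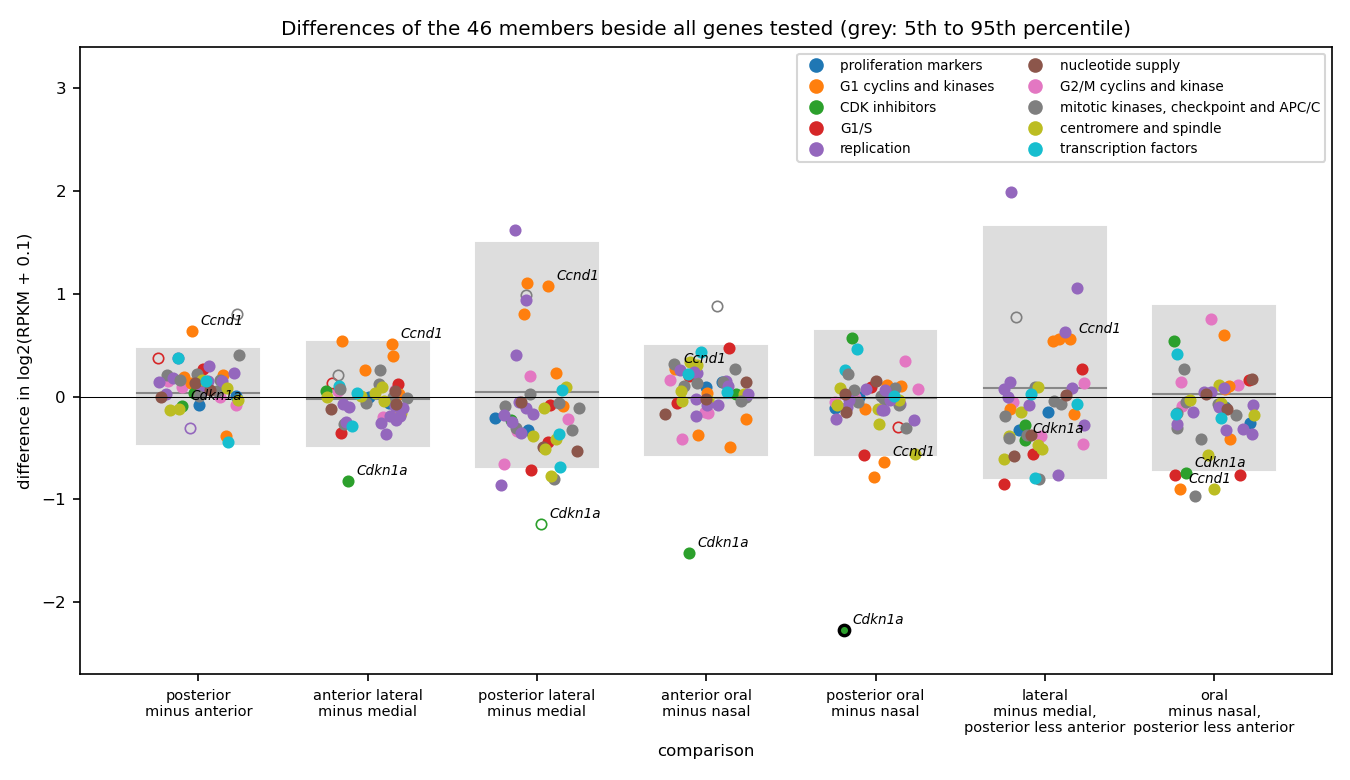
Differences of the 46 members in 7 comparisons on the log2(RPKM + 0.1) scale, coloured by role; open circles were under the expression minimum, the black ring marks the call, and grey boxes span the 5th to 95th percentile of all genes tested with a line at their median. Cdkn1a in the oral and nasal comparisons lies far below the boxes, and most members lie inside them.

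Between the lateral and medial compartments of the anterior palate the members' counts were near or under the shares of all genes. None of the 44 members tested was called (2.51% of 10427 genes were), 5 had an unadjusted P under 0.05 in limma (15% of genes) and 10 did not overlap (21.3% of genes). Ccnd2 (gene ID 12444, chr6:127075727-127101066, mm9), a cyclin that like D1 responds to growth signals, was at 102, 83.7 and 91.3 RPKM in lateral and 66.1, 60.8 and 62.9 RPKM in medial. This was a log2 difference of 0.54 (SE 0.12, adjusted p = 0.0701, limma), and under a mean-variance trend the adjusted p was 0.0236, the lowest over 16 alternatives, whose highest was 1.00. Ccnd1 was 0.51 higher in lateral (adjusted p = 0.143, limma) and Ccnd3 0.40 higher (adjusted p = 0.267, limma), neither with overlap. All 5 G1 cyclins and kinases were above 0, at a median of 0.40, the lowest being Cdk4 at 0.03.

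The 10 replication genes all had the opposite sign in the same comparison, none past the adjusted test. Their differences had a median of -0.19 and ran from -0.37 for Cdc6 to -0.08 for Pcna, while 44.7% of all genes were above 0. Mcm5 was at 30.3, 29.95 and 32.4 RPKM in lateral and 37.3, 38.8 and 34.9 RPKM in medial, a difference of -0.26 (adjusted p = 0.316, limma). Ccne1 was 0.35 lower in lateral (adjusted p = 0.289, limma). No sequencing run held both lateral and medial libraries, so that run and compartment cannot be told apart here. In a fit of all 25 libraries with the run as a term, Mcm5 turned to 0.024 higher in lateral, Ccnd1 was 0.05 higher, Ccnd2 0.63 higher and Ccnd3 0.86 higher. Summed endothelial markers were at 132 to 150 RPKM in lateral and 96.6 to 115 RPKM in medial, and 6 nerve and Schwann cell markers at 19.6 to 24.7 RPKM and 38.7 to 61.9 RPKM. Their part in these differences was not tested.

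The posterior lateral and medial libraries were spread more widely. Of 44 members tested none was called, as of all 10324 genes (0%), and none had an unadjusted P under 0.05 in limma (1.54% of genes did). The median SE of a member was 0.39 on the log2 scale, beside 0.14 in the anterior. None was called without posterior medial 2 either, and the median of the 46 members was -0.19 with it and -0.28 without it. With it the median of all genes was 0.05. Of the 46 members 12 were above 0, beside 54.3% of all genes. Ccnd2, at 80.3, 56.2 and 70.5 RPKM in lateral and 52.1, 14.9 and 41.1 RPKM in medial, was higher in lateral by 1.10 with a 95% interval of -0.14 to 2.34. It was 1 of 3 members without overlap (6.62% of genes), with Aurka and Mcm6, which were 0.31 and 0.25 lower in lateral. Cdc6 was 1.62 higher with an interval of -1.46 to 4.71, since posterior medial 2 was at 0.172 RPKM and the other medial libraries at 4.63 and 8.80 RPKM. No member was called for a lateral to medial difference that differed between anterior and posterior (0.00902% of 11089 genes were), and none had an unadjusted P under 0.05 (3.36% of genes did).

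Several members owed their range to individual libraries. E2f1, the factor that opens S phase, was at 219 RPKM in anterior oral 1, at 166 RPKM in anterior nasal 1 and at 62.8 RPKM in anterior nasal 2, all 3 from the same run, and at 73.9 RPKM in posterior medial 2. In the other 21 libraries it lay between 9.93 and 34.2 RPKM. In anterior oral 1, the library with the most E2f1, most other S phase members lay below their medians. The median deviation on the log2 scale was -0.46 over the 10 replication genes, -0.58 over the 3 G1/S genes and 0.25 over the 3 nucleotide genes. Furthest below were Cdc45, Mcm2, Mcm7, Rrm1 and Mcm3, at -1.17, -0.97, -0.92, -0.86 and -0.72. Only Tyms, Ccne2, Pcna and Rrm2 lay above, at 0.68, 0.44, 0.28 and 0.25. Posterior medial 2 held the lowest value of 10 members and the highest of 12, among them Mcm2 at 3.04 RPKM beside 16.8 to 51.4 RPKM elsewhere. Plk1 ran from 0 in that library and 0.0718 RPKM in anterior oral 1 to 13.2 RPKM in posterior nasal 1, and it was under the minimum in all but 1 of the 5 pairwise comparisons. Nucleotide genes were steadier. The ribonucleotide reductase subunit Rrm2 ran from 26.1 to 54.8 RPKM with a median of 36.1 RPKM, and thymidylate synthase, Tyms, from 21.2 to 63.6 RPKM with a median of 28.1 RPKM. Aurora kinase B, Aurkb, which corrects chromosome attachment, ran from 23.0 to 52.9 RPKM (median 37.4). Cdc20, which activates the anaphase promoting complex, ran from 10.6 to 30.7 RPKM (median 20.2). Foxm1 and Mybl2 ran from 13.7 to 51.0 RPKM and from 5.602 to 20.7 RPKM, each lowest in anterior oral 1.

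**Figure D4:**
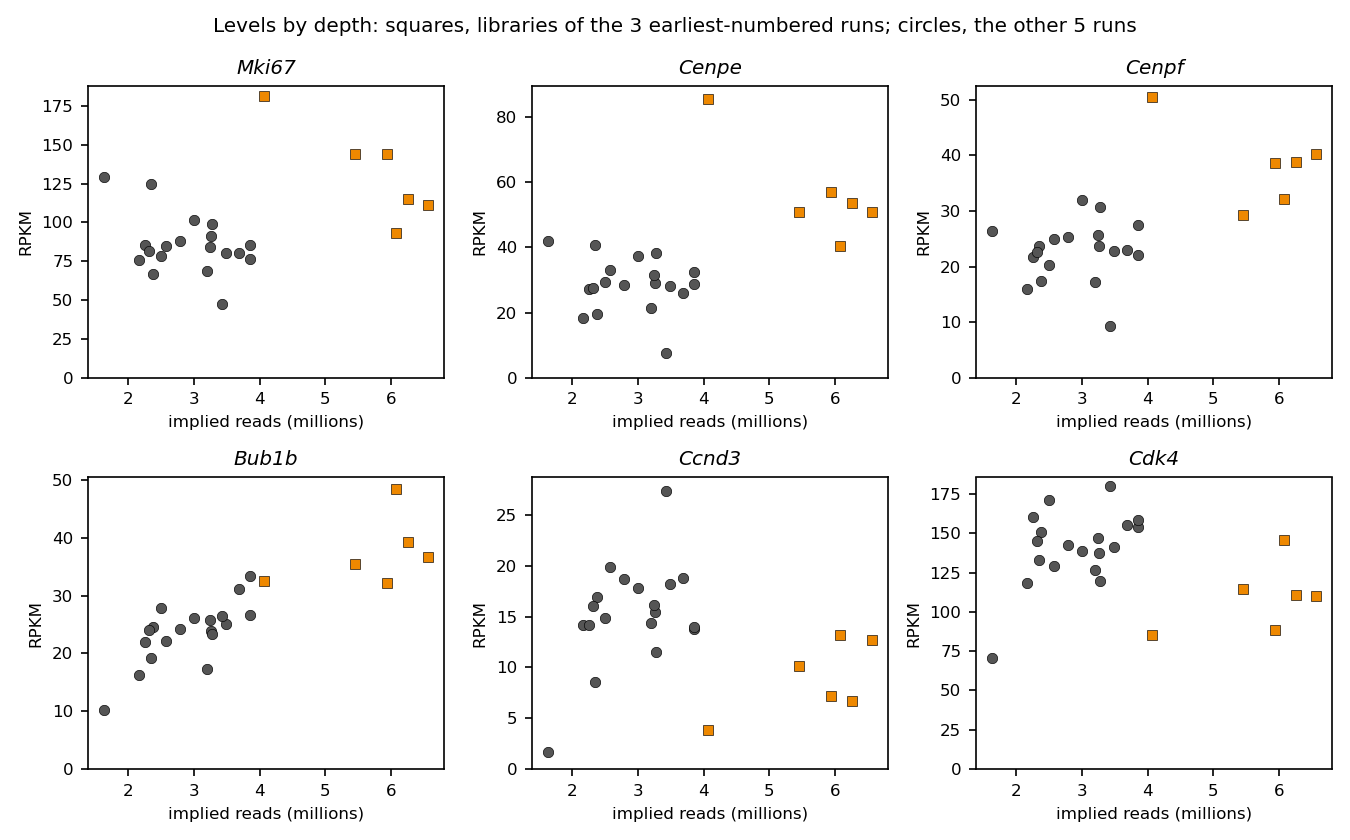
RPKM of 6 members against the implied reads of each library (M); squares are the 6 libraries of the 3 earliest-numbered runs and circles the 19 of the other 5. Cenpe, Cenpf and Bub1b are high and Ccnd3 low in the 6 deepest libraries.

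Several mitotic and centromere genes had other levels in some sequencing runs. The 6 libraries of the 3 earliest-numbered runs, 1 from each compartment but the anterior medial and lateral ones, were also the 6 deepest, at 4.07 to 6.56 M reads against 1.64 to 3.86 M. The kinetochore protein Cenpf was at 29.3 to 50.5 RPKM (median 38.7) in these 6 and at 9.33 to 32.0 RPKM (median 22.9) in the other 19. The kinetochore motor Cenpe was at 40.4 to 85.7 RPKM against 7.60 to 42.0 RPKM, and Mki67 at 93.1 to 181 RPKM against 47.4 to 130 RPKM. Ccnd3 went the other way, at 3.88 to 13.1 RPKM against 1.65 to 27.4 RPKM, and so did Cdk4, with medians of 110 and 143 RPKM. No member was wholly free of overlap between the 2 sets of runs. Run and depth cannot be told apart in these libraries, and their part in the values was not tested apart from the fits with the run as a term.

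None of the other genes of the pathway that were tested was called. A list of 82 more genes for E2F and retinoblastoma proteins, origin and polymerase factors, spindle and kinetochore components was in the table in full, and 70 to 78 of them were tested in each comparison. This held for all 8 tests with limma. At an unadjusted P under 0.05 in limma there were 5 of 70 between posterior and anterior (4 higher, 1 lower), beside 15.3% of all genes. Between anterior lateral and medial there were 5 of 76 (1 higher, 4 lower), beside 15%. In the posterior lateral and medial comparison it was 0 of 77, beside 1.54%. Between anterior oral and nasal it was 0 of 77, beside 2.98%. Between posterior oral and nasal it was 1 of 76, lower in oral, beside 8%. In each interaction it was 1 gene, beside 3.36% of genes for lateral and medial and 3.38% for oral and nasal. Over all 8 compartments it was 1 gene, beside 12%.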

How the data were processed

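The palate compartments of 25 libraries were grouped by the sample labels. The authors deposited RPKM values, made with GeneSpring from single-end reads of 50 bases, of which duplicates and those aligned more than once had been removed; the submitters' processing notes name TopHat and mm9. Counting reads at the same position once can lower high values. Whether strand was used is not given in the sources used here. Depth was implied by the steps between low values, and relative depths came out the same for 25 of 25 libraries with another reference library. The absolute scale is less certain, since it rested on 46 of 148 single-transcript genes that gave the same total. Why the paper's average read number is higher was not examined. Intervals cover the spread between samples.

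The members, lists and tests were chosen with earlier results of these data known. log2(RPKM + 0.1) was fitted with limma 3.58.1 in R 4.3.3 (lmFit, eBayes), which was tested on simulated data, over genes that reached 5 RPKM in 3 or more compared samples (10 RPKM in 6 or more for posterior against anterior), with Benjamini-Hochberg adjustment over all genes tested. Members under the minimum were described without a test. The 8 sequencing runs were read from the alignment names of the study's tables. Members named were 1 to 4 fixed for each role, every member called, up to 2 in each direction with the smallest unadjusted P under 0.05, and members at 0 in a library. Mcm4, Mcm7, Cdt1, Bub1b, Ccnd3, Ccnb2, Ccne2, Cenpe, Aurka, Cdc45 and Rrm1 were named after their values were seen. Same-numbered anterior oral and nasal libraries deviated together (r = 0.242, 0.218 and 0.116 across genes), but anterior oral 2 and 3 matched best the nasal libraries of their own sequencing runs, nasal 3 and 4. The main fits did not pair libraries, and the replicate number entered only in the replicate block alternative. Alternatives were other pseudocounts, scalings, filters and fits, the replicate block, and leaving out libraries. Python 3.11.15 with pandas 2.3.3, numpy 2.4.6 and matplotlib 3.10.9 served for the rest.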

Additional observations from a re-analysis of the deposited data

Results flagged for a closer look

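In the anterior nasal compartment, the only one with 4 libraries, 7 of the 46 members had a library whose gap to the nearest other exceeded Dixon's 95% critical value (15.2%), beside 6.75% of 11913 genes in the same libraries and about 1 in 20 by chance. All 7 came from 2 libraries, and members of 1 library are not independent. Anterior nasal 4, the deepest of the 4 and the one from an early-numbered run, was high for Mki67 (181 RPKM, the others 69.0 to 85.4), Ccnb2 (120 RPKM, the others 35.4 to 48.3), Cenpe (85.7 RPKM, the others 18.3 to 27.3) and Cenpf (50.5 RPKM, the others 15.9 to 21.7). The same library was low for Ccnd3 (3.88 RPKM, the others 14.2 to 14.4). Anterior nasal 1 was low for Cdk1 (18.5 RPKM, the others 25.5 to 26.2) and for Mcm4 (30.8 RPKM, the others 37.5 to 38.1). None of the 7 was called in the anterior oral and nasal comparison.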

How the results depend on the processing

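Under the alternatives, 172 counts of members called stayed within 1.5 times the count reported and 17 did not. Between posterior and anterior the count was 1 (Ccnd1) without the 2 libraries that stood apart, an alternative chosen after seeing the data, and 0 to 1 over the fits without 1 library (Mcm6 without anterior medial 2, Ccnd1 without posterior medial 2). For anterior lateral against medial it was 1 under a mean-variance trend (Ccnd2), and Mcm5 turned to 0.024 with all 25 samples and the run in the fit; the cause was not tested. For posterior oral against nasal it was 0 with no filter on low values, 0 with the run as a term (added after seeing the data), and 0 to 1 without 1 library, Cdkn1a being under the minimum without any posterior nasal library. Over the 8 compartments it was 2 with quantile normalization (Ccnd1 and Cdkn1a), 4 without the 2 libraries that stood apart and 0 to 3 without 1 library; without posterior medial 1 these were Ccnd1, Ccnd2 and Cdkn1a, without posterior medial 2 Ccnd1 and Cdkn1a, and without a posterior nasal library none. All 140 recomputed medians of the members moved by less than the median spread of a member within compartments, 0.37 on the log2 scale. That width exceeds the medians themselves, so it does not secure their sign. Leaving the interactions aside, the median changed sign between anterior lateral and medial (-0.097 to 0.02). It also did so between oral and nasal in the anterior (-0.03 to 0.23) and the posterior (-0.08 to 0.03). The median kept its sign between posterior and anterior and between posterior lateral and medial. The replicate block changed no call: Cdkn1a in posterior oral against nasal stayed at -2.27 with an adjusted p of 0.0284 in limma. Outside the anterior oral and nasal pair, same-numbered libraries did not all deviate together (r from -0.101 to 0.305 across genes). Depth limits Plk1, Ccne2, Cdc6 and Cdkn1a most, being the lowest members.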
